A study of Rattus norvegicus with 12 samples.

Results

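The genes described here are B cell genes, measured in the colon of rats after neonatal maternal separation (NMS) with or without the probiotic VSL#3. They were chosen by name, as every non-control probe of the arrays whose gene name is Cd79a, Cd79b, Ms4a1, Pax5, Cd22, Cr2, Blk, Cd37 or Spib. Of these 9 genes, 7 were found, each with 1 probe, among 22338 gene names and 30367 probes in all; Cd79a and Pax5 are not analysed here. The genes were proposed from earlier results of the same arrays, so their values, and the counts of calls among them, are a description and no independent evidence. Male Wistar rats of 200 to 250 g formed 3 groups of 4 rats. Group C (rats C1 to C4) stayed with the dam and received placebo, that is 100 µl of saline by gavage. Group M (M5 to M8) was separated from the mother for 180 min a day from day 2 to day 14 and received the same placebo. Group D (D9 to D12) underwent the same NMS and received VSL#3, a mixture of probiotic bacteria, from day 3 to day 60, by gavage in 100 µl (the labels and the study's methods give different doses). The rats of all 3 groups underwent colorectal distension (CRD), and the colon was taken at day 60, so no group without CRD enters the comparisons. Nothing in the labels says whether rats of a group came from separate litters.

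B cells of the gut wall are gathered in lymphoid follicles and patches beneath the epithelium. A resting B cell carries an antigen receptor whose signal is passed on by Cd79a and Cd79b and tuned by co-receptors. After antigen contact, B cells can enter a germinal centre, where they divide and are selected, and can leave it as plasma cells, which have shut down most B cell surface genes. This is general background and says nothing of the cause of any value below.

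The 60-base probes that gave the values of 6 of the genes are printed here, 5′ to 3′ and in lower case, because every value of these genes rests on that one stretch of transcript. Positions refer to rn4, the build named in the array files, and all lie on the minus strand.
Cd79b, chr10:95703614-95703673: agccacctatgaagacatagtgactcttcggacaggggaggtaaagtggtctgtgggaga
Ms4a1, chr1:213764136-213764195: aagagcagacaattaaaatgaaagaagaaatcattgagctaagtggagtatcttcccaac
Cd22, chr1:85925702-85925761: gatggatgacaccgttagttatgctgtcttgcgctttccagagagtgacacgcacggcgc
Cr2, chr13:111091201-111091260: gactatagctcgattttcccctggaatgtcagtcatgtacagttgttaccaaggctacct
Blk, chr15:42649987-42651073: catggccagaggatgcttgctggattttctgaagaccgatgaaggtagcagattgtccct
Cd37, chr1:95711715-95711774: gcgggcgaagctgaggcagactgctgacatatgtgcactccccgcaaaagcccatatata
The Blk probe covers 1087 bases of genome for its 60 bases, that is, it crosses an exon junction, and the other 5 lie within an unbroken stretch. The probe of Spib lies at chr1:95004231-95004290, on the minus strand too. Each array carried 10 spots of the Spib probe and 2 spots of each of the others.

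All values are log2 signals relative to the 75th percentile of their own array, so a value of 0 is the brightness that 75% of the spots did not exceed. They compare rats for 1 probe and not 1 probe with another. The 75th percentile itself ranged from 1434 to 1950 intensity units, and 75.5% to 77.5% of spots lay well above background. In colon, the epithelial genes Cdh1 and Muc2 and the smooth muscle genes Myh11 and Des were well above background on all 12 arrays. The arrays of Groups C and M shared a slide, each group on its own row, and the arrays of Group D were on another slide in a second scan, so slide and group cannot be told apart wherever Group D is compared. The study analysed 11 arrays, and its text gives no reason for leaving out rat D12. Group means below are over these 11 arrays, and D12 is given beside them.

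Cd79b, a signalling chain of the antigen receptor, was well above background on all 12 arrays. Its log2 signal was -3.08, 1.04, -2.72 and -2.78 in C1 to C4, 1.49, -2.60, 0.61 and 0.97 in M5 to M8 and -3.75, -1.82 and -2.42 in D9 to D11, and it was 2.18 in D12. C2, M5, M7, M8 and D12 were the high rats, and M6 lay among the low rats of the other groups. The group means were -1.88 ± 1.96 (SD, n = 4) in Group C, 0.12 ± 1.85 (SD, n = 4) in Group M and -2.66 ± 0.99 (SD, n = 3) in Group D.

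Cr2 and Cd22 encode co-receptors of the antigen receptor, of which Cr2 binds complement fragments and lowers the threshold of activation, whereas Cd22 restrains it. The log2 signal of Cr2 was -7.87, -1.21, -7.43 and -6.58 in C1 to C4, -0.55, -8.68, -1.73 and -1.30 in M5 to M8, -8.75, -5.38 and -6.24 in D9 to D11 and -0.68 in D12. The same 5 rats were high, and the Cr2 signal fell by 3.65 on the log2 scale from the fifth to the sixth highest rat. For Cd22 the log2 signal was -8.62, -3.61, -7.16 and -8.09 in C1 to C4, -2.91, -8.61, -3.88 and -3.45 in M5 to M8, -8.70, -7.38 and -8.00 in D9 to D11 and -1.83 in D12. Cd22 was well above background in those 5 rats only. Where it was not, the value gives only an upper bound. Cr2 was well above background on 7 arrays.

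Ms4a1 (the antigen CD20) and Cd37 (a tetraspanin) are membrane proteins of mature B cells. Ms4a1 had a log2 signal of -7.94, -2.55, -6.45 and -5.84 in C1 to C4, -1.02, -7.23, -2.05 and -1.55 in M5 to M8, -8.69, -5.43 and -6.81 in D9 to D11 and -0.62 in D12, and it was well above background on 8 arrays. Again C2, M5, M7, M8 and D12 were above all others. For Cd37 the log2 signal was -5.79, -2.92, -5.61 and -5.52 in C1 to C4, -2.48, -4.63, -3.48 and -3.26 in M5 to M8, -6.27, -5.48 and -5.42 in D9 to D11 and -2.19 in D12. Here M6 lay between the low rats and the 5 high rats, and the gap from the fifth to the sixth highest rat, 1.15 on the log2 scale, was the narrowest of the 7 genes. Cd37 was well above background on all 12 arrays.

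Blk, a tyrosine kinase of the Src family that acts next to the antigen receptor, had a log2 signal of -7.03, -3.28, -6.85 and -6.84 in C1 to C4, -2.43, -7.43, -3.37 and -2.84 in M5 to M8, -8.65, -5.67 and -6.18 in D9 to D11 and -1.82 in D12. It was well above background on 8 arrays. Spib encodes Spi-B, a transcription factor of the Ets family that B cells, plasmacytoid dendritic cells and the M cells of the epithelium use, so it is not particular to B cells. Its log2 signal was -1.24, 1.42, -1.33 and -0.73 in C1 to C4, 2.13, -1.67, 1.44 and 1.79 in M5 to M8, -0.63, -0.84 and -0.72 in D9 to D11 and 2.49 in D12. In Spib, D9 was no lower than D10 and D11, whereas D9 was the lowest of all 12 rats in Cd79b and Cd37.

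**Figure D1:**
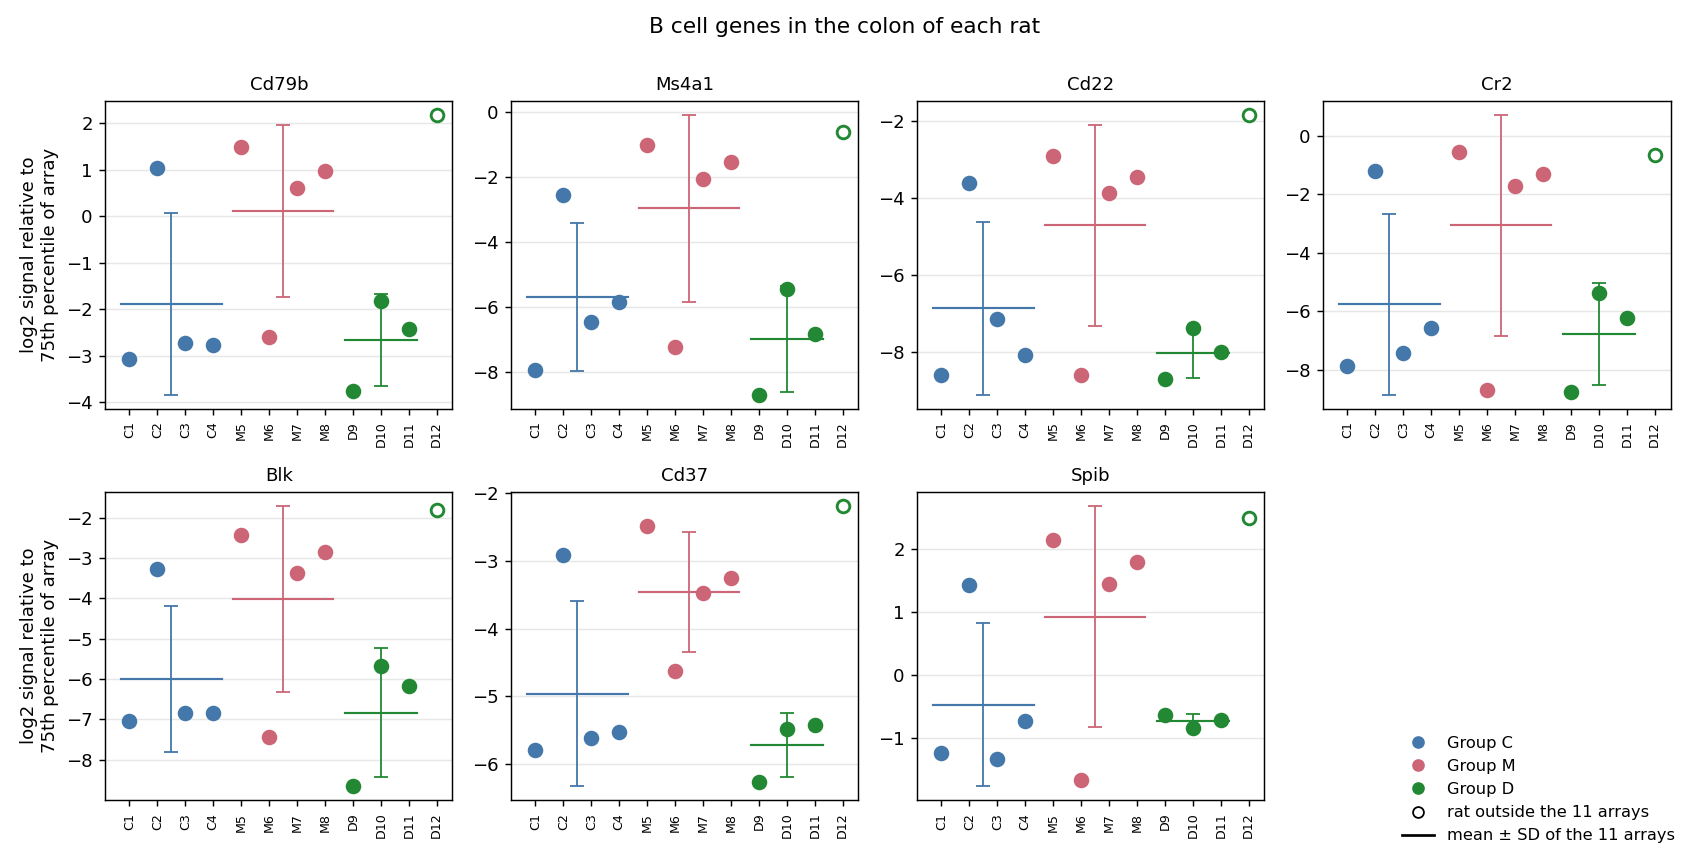
Log2 signal relative to the 75th percentile of the array (y axis, a scale of its own in each panel) of the 7 B cell genes in each of 12 rats (x axis). Filled points are the 11 arrays of the group means, the open point is D12, and the bars are mean ± SD; C2, M5, M7, M8 and D12 are the 5 highest rats in every panel.

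The 7 genes therefore shared an order of rats that crossed the groups. In 7 of 7 genes the 5 highest rats were C2, M5, M7, M8 and D12, that is, 1 rat of Group C, 3 of Group M and 1 of Group D. Of 30348 probes with a value on all arrays, 1793 (5.91%) had these same 5 rats on top. D12 was the highest rat in 6 genes and M5 in Cr2. The step from the fifth to the sixth rat was 2.22-fold for Cd37 and 12.6-fold for Cr2. Each gene had a Pearson r of 0.952 to 0.995 with the mean of the other 6 genes over 12 rats, which describes their likeness alone, since the rats fall into separate clusters and share the scaling of their arrays. Within groups, the SD of the 7 genes over the 11 arrays ranged from 1.02 (Cd37) to 3.11 (Cr2) on the log2 scale, while the median of all probes was 0.24, and 97.8% of probes varied less within groups than Cd37. In whole colon, more B cells and more RNA per B cell cannot be told apart.

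Group M was compared with Group C to see what NMS changed. The mean log2 signal was higher in Group M for 7 of 7 genes, by 1.39 (Spib) to 2.73 (Ms4a1), with a median difference of 2.00, where the median over all probes was -0.014 and 47.4% of probes were higher. By limma, which needed an adjusted p up to 0.05 and a 2-fold difference, 0 of the 7 genes were called, and 0.168% of all probes were. At an unadjusted p of at most 0.05, 1 of the 7 genes (Cd37) passed, and 22.7% of all probes did. At 0.01, 0 genes and 8.01% of all probes passed. The criterion of the study's methods (analysis of variance and a Tukey test, both with unadjusted p up to 0.05, and a 2-fold difference) called 0 genes, and 2.33% of all probes. Although 7 of 7 means differed by at least 2-fold, as did those of 5.36% of probes, the groups did not lie apart for any of the 7 genes (they did for 9.25% of probes). In all 7, C2 was among the high rats, and in all but Cd37, M6 was among the low ones. For Cd79b and Cd37, M6 lay above C1, C3 and C4, so C2 alone kept the groups from lying apart. With a normexp background correction, the differences of Cd22 and Cd37 were 0.82 and 0.85, under 2-fold. Those of Ms4a1, Cr2 and Blk were 1.66, 1.57 and 1.08, and the median of the 7 genes was 1.36. In Group C, Cd22 and Cr2 were well above background in 1 rat and Blk in 2, so the sizes of their differences are uncertain. The standard errors, 0.65 for Cd37 to 1.96 for Cr2, were large beside the differences, such as 2.71 for Cr2.

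A single rat moved these values. Without M6 the median difference was 3.12, and limma called 3 of the 7 genes (Ms4a1, Cd22 and Spib), beside 5.86% of all probes. Without C2 the median was 2.98 and 0 genes were called, beside 0.214% of all probes. With array weights, 7 of 7 genes were called, beside 6.94% of all probes. Limma estimates these weights from how far each array deviates from the mean of its own group, so they are no separate measure of quality. These weights were 0.37 for M6, 0.74 for C2 and 4.65 for M8.

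Group D was compared with Group M to see what VSL#3 changed in rats after NMS. Over the 11 arrays, the mean log2 signal was lower in Group D for 7 of 7 genes, with a median difference of -2.82, where the median over all probes was 0.022. The differences were -2.78 ± 1.17 (SE) for Cd79b, -4.01 ± 1.62 for Ms4a1, -3.73 ± 2.11 for Cr2, -2.82 ± 1.34 for Blk, -2.27 ± 0.70 for Cd37 and -1.65 ± 0.91 for Spib. Cd22 was not well above background in D9 to D11 nor in M6, so the size of its difference is uncertain, with measured means of -8.03 in Group D and -4.71 in Group M. Ms4a1 was well above background in 1 of D9 to D11, and Cr2 and Blk in 2. Each of them was so in 3 of 4 rats of Group M, so the sizes of their differences are uncertain too. With the normexp correction these were -2.16 for Ms4a1, -2.26 for Cr2 and -1.36 for Blk, and the median of the 7 genes was -1.61. By limma 0 of the 7 genes were called, and 0.125% of all probes. The unadjusted p was at most 0.05 for 4 of the 7 genes (Cd79b, Ms4a1, Cd22 and Cd37) and for 21.6% of all probes, and it was at most 0.01 for 1 gene (Cd37) and for 7.82% of all probes. The criterion of the methods called 1 gene, Cd37, and 2.65% of all probes. Cd37 was also the 1 gene of 7 for which D9 to D11 lay below all 4 rats of Group M, and the 2 groups lay apart for 16% of all probes.

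D12, the rat of Group D outside these 11 arrays, went the other way. With its array in the fit the median difference between Group D and Group M was -1.57, 0 of the 7 genes were called by limma (0.0132% of all probes) or by the methods' criterion (0.948%), and for 0 genes did the groups lie apart (5.01%). Leaving out M6 had the opposite effect, with a median of -3.95, and limma then called 7 of 7 genes, beside 6.51% of all probes. Array weights, given to the 11 arrays, called 7 of 7 genes too, beside 6.9% of all probes.

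**Figure D2:**
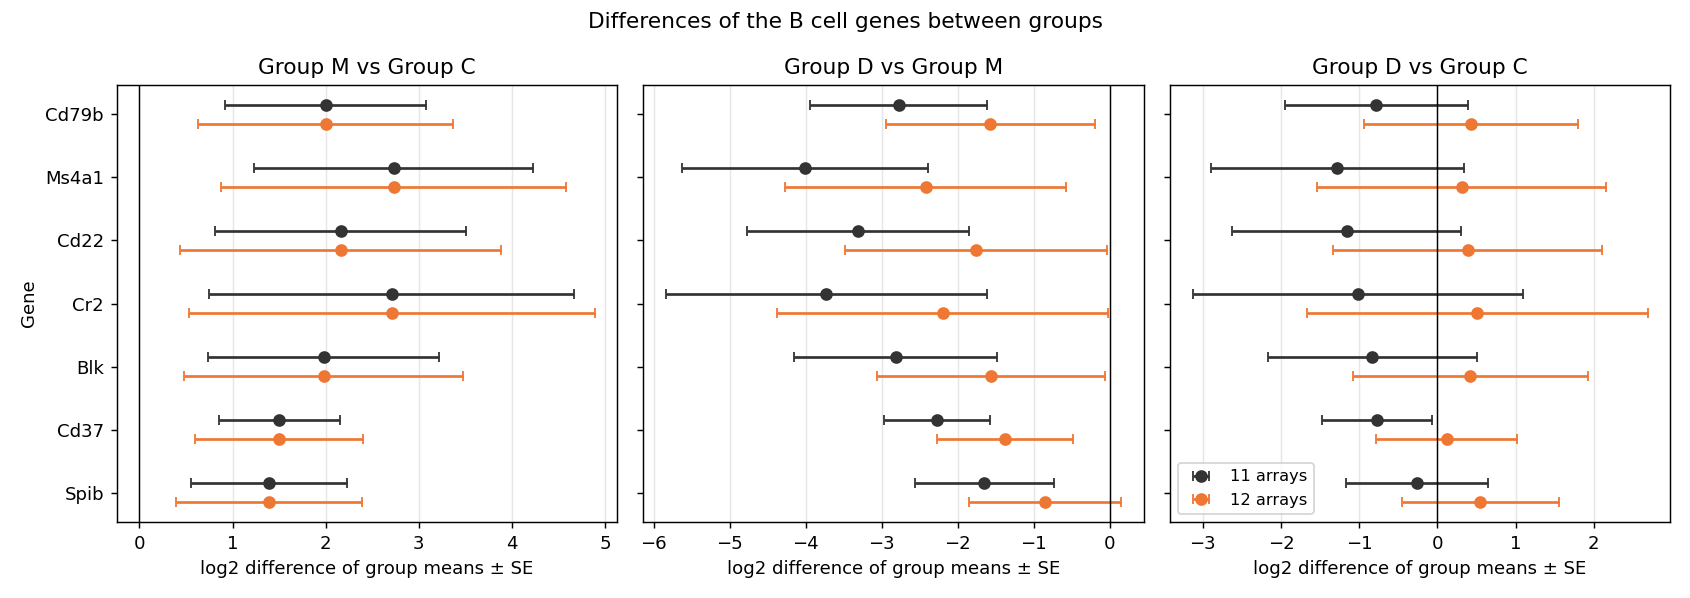
Difference of the group means on the log2 scale (x axis, ± SE from limma) of each of the 7 B cell genes (y axis) in the 3 comparisons, with 11 arrays (dark) and with all 12 arrays (orange). With D12 in the fit, the differences of Group D vs Group M shrink to a median of -1.57, and those of Group D vs Group C move from below 0 to above 0.

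Group D and Group C were compared to ask how far rats given VSL#3 after NMS differed from rats without NMS. The direction depended on D12. Over the 11 arrays all 7 means were lower in Group D, by a median of -0.83, from -1.28 ± 1.62 (SE) for Ms4a1 to -0.26 ± 0.91 for Spib. Over 12 arrays all 7 were higher, by a median of 0.42. Without C2 the median was 0.07. Limma called 0 of the 7 genes, and 0.00659% of all probes, with 0 genes at an unadjusted p of at most 0.05 (5.98% of all probes) or of at most 0.01 (1.4%), and the methods' criterion called 0 (0.366% of all probes). Each group enters a pair of the comparisons, so the 3 sets of differences are not independent of each other.

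**Figure D3:**
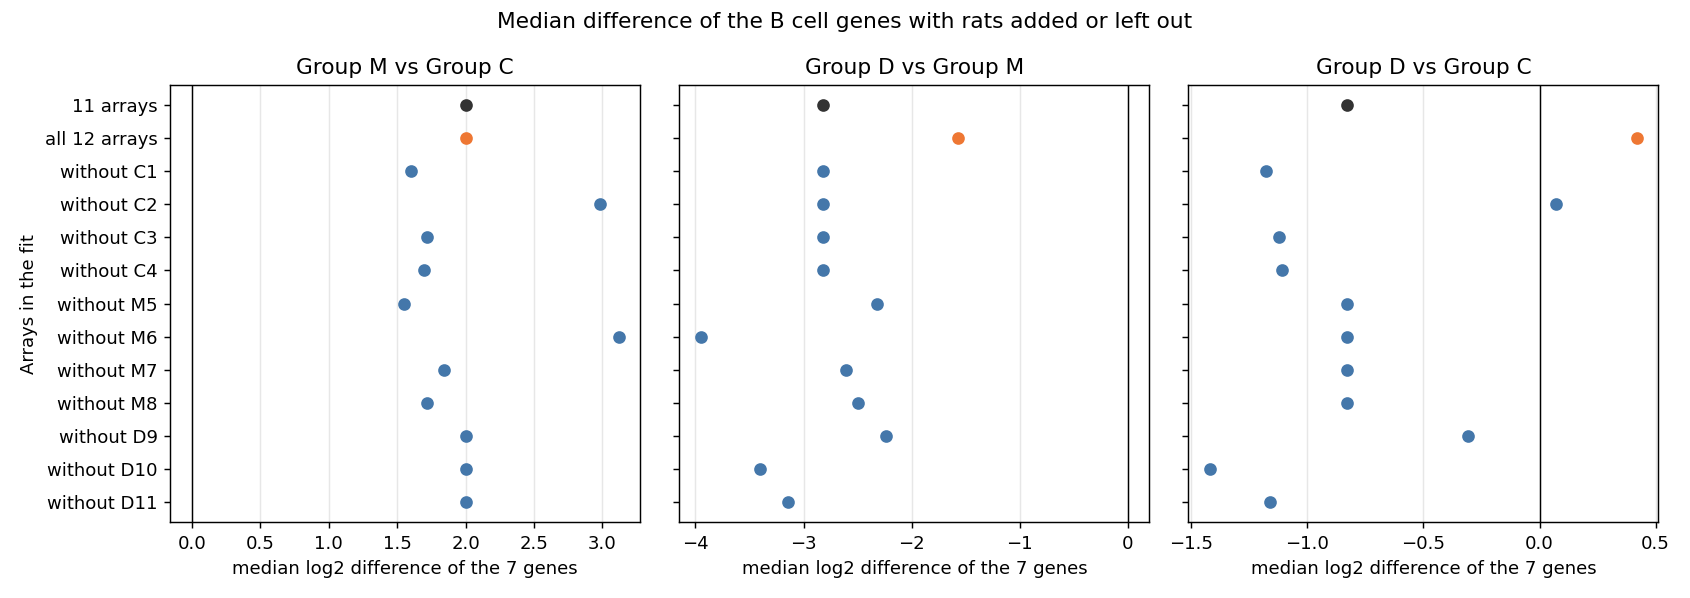
Median of the log2 differences of the 7 B cell genes (x axis) in each comparison when all 12 arrays enter the fit or when 1 of the 11 rats is left out (y axis). Without M6 the medians of the 2 comparisons of Group M are 3.12 and -3.95, and in Group D vs Group C the median lies above 0 without C2 or with D12.

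Genes that work with these were taken from lists of related genes, with 1 probe for each gene (the one of highest mean signal). The 5 lists of B cell receptor signalling, B cell transcription factors, B cell surface and co-stimulation, germinal centre and lymphoid tissue organisation held 69 measured genes. In Group M vs Group C, 63 of the 69 were higher, with a median difference of 0.87, and limma called 0 of them (lowest adjusted p = 0.106), with 14 at an unadjusted p of at most 0.05 and 5 by the methods' criterion. In Group D vs Group M, 6 were higher, the median was -1.25, and limma called 0 (lowest adjusted p = 0.0809), with 35 at an unadjusted p of at most 0.05 and 6 by the methods' criterion. In Group D vs Group C the median was -0.41, and 0 were called by limma or by the methods' criterion, with 0 at an unadjusted p up to 0.05. The shares of all probes called are those given above for each comparison. Leaving out M6 changed these calls, and then limma called 36 of the 143 genes of all 14 lists between Groups M and C, and 56 between Groups D and M.

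B cell receptor signalling had 20 measured genes, of which 18 had the same 5 highest rats as the 7 genes. The median difference of the list was 0.80 between Groups M and C and -1.18 between Groups D and M (-0.64 with 12 arrays). Btk, the kinase that carries the signal of the receptor onwards, had a log2 signal of -5.01, -2.90, -4.56 and -5.43 in C1 to C4, -1.92, -4.81, -2.67 and -2.46 in M5 to M8, -5.31, -4.54 and -4.79 in D9 to D11 and -1.64 in D12. Its 5 high rats were those of the 7 genes. It differed by 1.51 ± 0.66 (SE) between Groups M and C and by -1.92 ± 0.72 between Groups D and M. Cd72, an inhibitory receptor, differed by -2.04 ± 1.08 in the second comparison, and Ptprc, the phosphatase CD45 of all white blood cells, by 1.25 ± 0.74 and -1.80 ± 0.80 in the first and second. Their adjusted p values by limma were 0.166 to 0.348. In the same list, Cd81, which many cell types express, lay between 1.51 and 1.78 in all 12 rats, and Blnk, an adaptor protein, was lowest in M7. The inhibitory Fc receptor Fcgr2b was the 1 gene of the list that the methods' criterion called, at -1.68 ± 0.48 in Group D vs Group M (limma adjusted p = 0.11).

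Of 9 measured B cell transcription factors, 5 had the same 5 highest rats. Pou2af1, a co-activator that octamer-binding factors need in B cells and that plasma cells keep, had a log2 signal of 0.60, 1.84, 0.59 and 0.57 in C1 to C4, 3.23, 1.04, 2.66 and 2.96 in M5 to M8, -0.45, 0.49 and 0.40 in D9 to D11 and 3.23 in D12. The highest rat of Group C, C2, lay above M6 but below M5, M7 and M8. Its difference was 1.57 ± 0.48 (SE) in Group M vs Group C (limma adjusted p = 0.12) and -2.33 ± 0.52 in Group D vs Group M (limma adjusted p = 0.0835), and the methods' criterion called it in both. Ikzf1 (Ikaros, of all lymphocytes) differed by 1.12 ± 0.56 and -1.80 ± 0.60 in these comparisons and Mef2c by 0.61 ± 0.43 and -1.19 ± 0.46. Ebf1, which B cells share with stromal cells, differed by 0.22 ± 0.43 and -0.69 ± 0.46.

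Among 15 genes of the B cell surface and of co-stimulation, 11 had the same 5 highest rats. The differences were 2.11 ± 0.95 (SE) and -2.67 ± 1.03 for Vpreb3, 1.68 ± 0.94 and -2.15 ± 1.02 for the Fc receptor-like protein Fcrla, and 1.35 ± 0.79 and -1.93 ± 0.86 for the chemokine receptor Ccr6, the first value being Group M vs Group C and the second Group D vs Group M. The Fc receptor-like Faim3 differed by -2.04 ± 0.74 in Group D vs Group M. Limma called none of the 15 (lowest adjusted p = 0.129 and 0.126), 1 and 5 passed at an unadjusted p up to 0.05, and the methods' criterion called 0. Fcer2 (CD23), a receptor of resting B cells and follicular dendritic cells, had a log2 signal of -2.93 in C2, -3.62, -3.72 and -4.38 in M5, M7 and M8 and -2.51 in D12. C2 thus lay above the 3 high rats of Group M in Fcer2, whose other values were -7.34 to -5.80.

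Of 10 measured germinal centre genes, 8 had the same 5 highest rats, but in some of them C2, the fifth, lay near the low rats. Mef2b, a transcription factor of germinal centre B cells, was well above background in all rats and had a log2 signal of -4.48, -3.34, -4.56 and -4.31 in C1 to C4, -0.06, -4.43, -1.08 and -0.38 in M5 to M8, -4.36, -4.11 and -4.27 in D9 to D11 and -0.94 in D12. C2 was the fifth highest rat and nearer to the low rats than to M5, M7, M8 and D12. Mybl1 was well above background in M5, M7, M8 and D12 only, with -4.20, -5.13, -4.65 and -5.46, while C2 had -7.01. Il21, a cytokine of helper T cells in the follicle, was well above background on 2 arrays. By contrast, the receptor of that cytokine, Il21r, had -0.58 in C2 beside -0.09, -0.87 and -0.61 in M5, M7 and M8. Stap1 had -3.56 in C2 beside -3.57, -4.47 and -4.17 in M5, M7 and M8, and Gpr183 had -1.44 beside -1.05, -1.09 and -1.23. The genes of this list thus differed in where C2 lay. Over the 10 measured genes of the list, the median of the values centred on each gene's mean was 0.00 in C2, 1.51, 0.93 and 0.94 in M5, M7 and M8 and 1.62 in D12, whereas for the 7 B cell genes it was 2.11 in C2, 2.76, 1.83 and 2.36 in M5, M7 and M8 and 3.38 in D12.

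**Figure D4:**
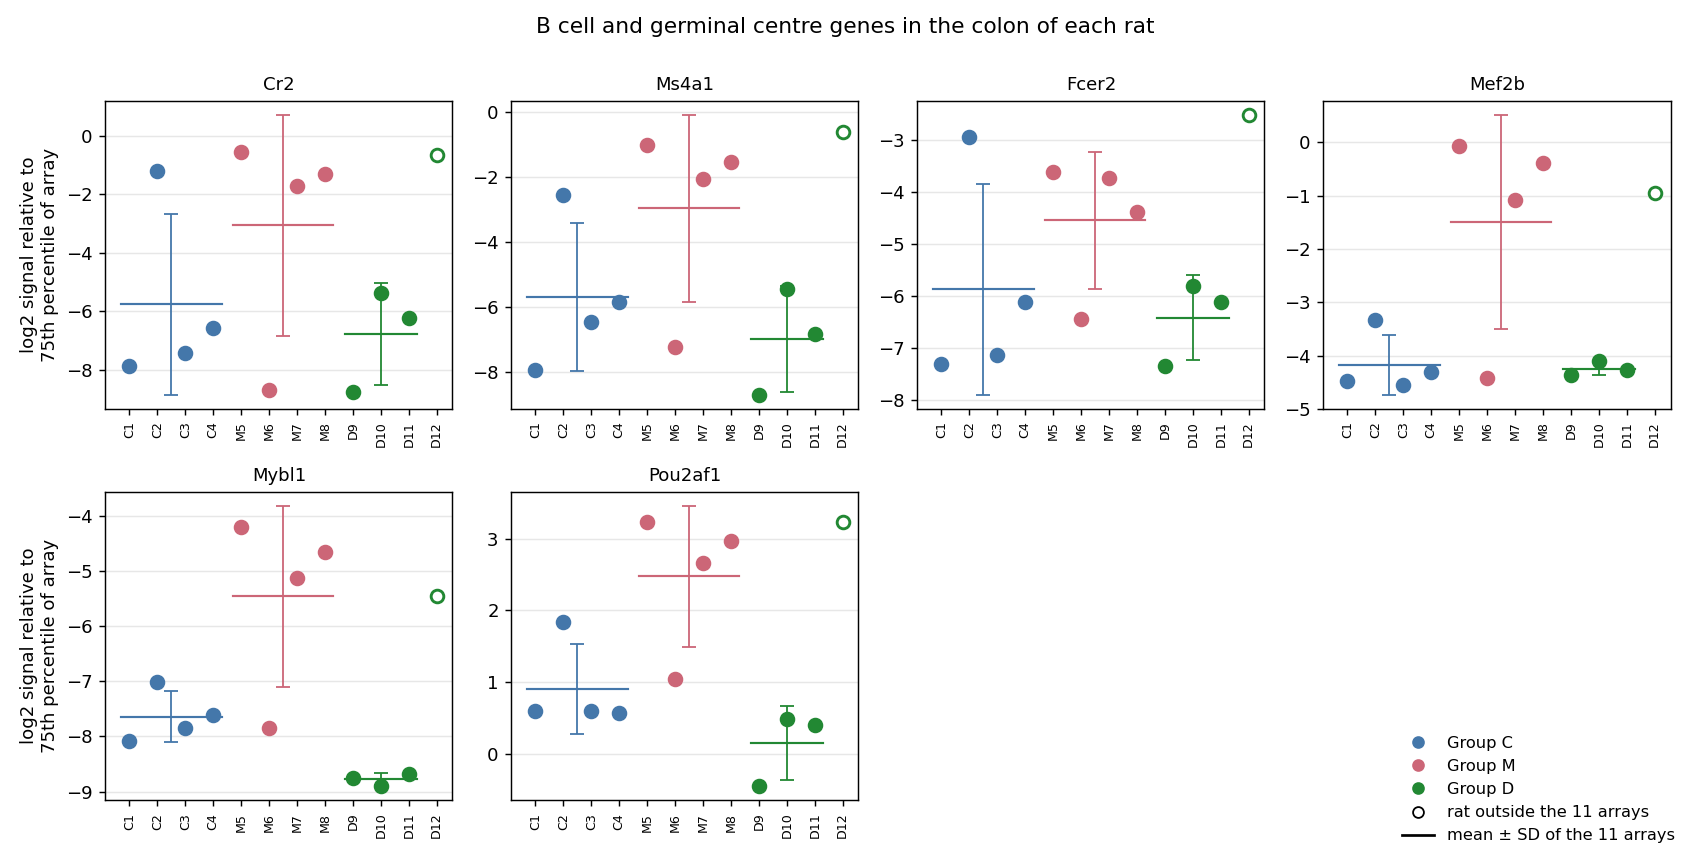
Log2 signal relative to the 75th percentile of the array (y axis, a scale of its own in each panel) in each rat (x axis) of the B cell genes Cr2, Ms4a1 and Fcer2 and of Mef2b, Mybl1 and Pou2af1; the open point is D12 and the bars are mean ± SD of the 11 arrays. C2 is among the high rats in Cr2, Ms4a1 and Fcer2 and near the low rats in Mef2b (-3.34) and Mybl1 (-7.01). Mef2b and Mybl1 do not stand for all germinal centre genes, since C2 was among the high rats in Stap1, Gpr183 and Il21r, which are not drawn.

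In the list of germinal centre genes, limma called 0 of 10 genes in Group M vs Group C, 7 passed at an unadjusted p up to 0.05, and the methods' criterion called 4, among them Mef2b, Mybl1 and Il21. Il21 was well above background on 0 arrays of Group C and 1 of Group M, so its call rests on values near background. In Group D vs Group M limma called 0, 8 passed at an unadjusted p up to 0.05, and the methods' criterion called 4, among them Bcl6, Mybl1 and Gpr183. Bcl6, the repressor that keeps B cells in the germinal centre, differed by -1.25 ± 0.34 (SE, limma adjusted p = 0.104) and Gpr183, which guides B cells out to the edge of the follicle, by -1.36 ± 0.42 (limma adjusted p = 0.126). Mef2b differed by 2.68 ± 0.81 in Group M vs Group C and by -2.76 ± 0.87 in Group D vs Group M. No test compared C2 with the other rats.

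The genes that build and supply lymphoid tissue had a median difference of 0.85 between Groups M and C and -0.94 between Groups D and M, and 9 of 15 had the same 5 highest rats. Ccl19, which draws lymphocytes into the T cell zone, had a log2 signal of -4.24, 3.23, -3.53 and -3.21 in C1 to C4, 3.02, -4.45, 2.50 and 2.96 in M5 to M8, -3.81, -2.09 and -2.87 in D9 to D11 and 3.54 in D12. C2 was as high as the high rats of Group M here. Cxcl13, which draws B cells into the follicle, was -3.16, 0.10, -2.29 and -3.58 in C1 to C4, 1.15, -2.66, 0.10 and 0.37 in M5 to M8, -3.04, -2.37 and -3.15 in D9 to D11 and 0.87 in D12. Glycam1, a ligand on the vessels through which lymphocytes enter, differed by 2.78 ± 1.36 (SE) and -3.44 ± 1.46, the vessel adhesion molecule Madcam1 by 1.53 ± 0.57 in Group M vs Group C and lymphotoxin beta (Ltb) by -1.83 ± 0.88 in Group D vs Group M. The survival factors of B cells Tnfsf13b (BAFF) and Tnfsf13 (APRIL) did not have this order of rats. For Tnfsf13, C2, M5, M7, M8 and D12 were the 5 lowest rats, with 0.05, -0.02, -0.40, -0.10 and -0.16, and the other 7 rats had 0.29 to 0.97. Tnfsf13b was lowest in D12 (-6.52), D11 (-6.14) and C2 (-6.10). Limma called 0 of the 15 genes in either comparison (lowest adjusted p = 0.158 and 0.131), and so did the methods' criterion, with 2 and 6 genes at an unadjusted p of at most 0.05.

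M cells lie in the epithelium over lymphoid follicles and share Spib with B cells. Of 6 genes of M cells and follicle epithelium, 4 had the same 5 highest rats. Gp2, the uptake receptor of M cells, had a log2 signal of -5.09, -3.41, -4.30 and -4.24 in C1 to C4, -2.35, -5.42, -2.85 and -2.51 in M5 to M8, -3.65, -3.79 and -4.62 in D9 to D11 and -2.35 in D12. C2 was next after the other 4 high rats. Tnfaip2 differed by 1.38 ± 0.43 (SE, limma adjusted p = 0.121) in Group M vs Group C and by -1.76 ± 0.46 (limma adjusted p = 0.0995) in Group D vs Group M, and the methods' criterion called it in both. The other genes of largest difference were Marcksl1 (0.59 ± 0.21 and -0.58 ± 0.23) and Anxa5 (0.51 ± 0.15 and -0.62 ± 0.17), which many cells express. In Group M vs Group C, 5 of the 6 genes were higher and 1, Ccl20, was lower. Its mean was -0.27 in Group C, -0.57 in Group M and -0.37 in D9 to D11, and it was well above background on all 12 arrays.

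Markers of other cell types moved with the 7 genes to different degrees. Of 14 T cell genes, 12 had the same 5 highest rats, and their centred median was 1.38 in C2, 1.42, 0.89 and 0.93 in M5, M7 and M8 and 2.29 in D12, against -1.24 to -0.49 in the other 7 rats. The T cell genes thus moved with the B cell genes, C2 included. Cd3e, a chain of the T cell receptor complex, differed by 1.02 ± 0.83 (SE) in Group M vs Group C, and Cd3g by -1.46 ± 0.89 in Group D vs Group M. Limma and the methods' criterion called 0 of the 14 in both comparisons, with 0 and then 1 gene at an unadjusted p of at most 0.05. Cd28 stayed near background on all arrays.

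Plasma cell genes did not share the order of rats, and 0 of 8 had the same 5 highest rats. Their centred median ranged from -0.33 to -0.04 in Group C, with -0.15 in C2, from 0.09 to 0.49 in Group M, from -0.37 to -0.13 in D9 to D11 and was 0.18 in D12. The joining chain of secreted antibodies, Igj, was 2.01, 1.32, 2.33 and 1.54 in C1 to C4 and 1.85, 2.39, 2.03 and 1.69 in M5 to M8, so the values overlapped, and M6 was high. Irf4, a transcription factor of plasma cells and activated lymphocytes, was -5.58, -5.21, -5.71 and -6.87 in C1 to C4, -4.25, -4.83, -4.48 and -4.75 in M5 to M8 and -6.48, -6.00 and -6.34 in D9 to D11, and over the 11 arrays the groups lay apart in both comparisons. Its difference was 1.26 ± 0.31 (SE, limma adjusted p = 0.0996) in Group M vs Group C and -1.69 ± 0.34 (limma adjusted p = 0.0723) in Group D vs Group M. In D12 it was -4.64, within the range of Group M.

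Among 9 macrophage genes, 4 had the same 5 highest rats. The largest difference was that of lysozyme, Lyz2, with -1.63 ± 0.55 (SE) in Group D vs Group M. Of 8 neutrophil genes, 3 had the same 5 highest rats. Their centred median was highest in M7, at 2.44, and -1.08 to 0.89 in the other rats. Single neutrophil genes differed in this, since S100a8 and S100a9 were highest in M7, Fpr1 in M5 and Mpo in D10. Epithelial, smooth muscle, neural and mesothelial genes had 0 of 9, 0 of 7, 0 of 9 and 0 of 4 genes with the same 5 highest rats. The centred median of the epithelial genes was -0.30, -0.33, 0.10, -0.28 and -0.55 in C2, M5, M7, M8 and D12 and 0.00 to 0.48 in the other rats. Car1, a carbonic anhydrase of colonic surface cells, had a log2 signal of 0.76 in C2, -0.29, -0.33 and -0.22 in M5, M7 and M8, -0.23 in D12, 1.19 in M6 and 1.25 to 2.40 in the remaining rats. The methods' criterion called it lower in Group M vs Group C, by -1.62 ± 0.44 (limma adjusted p = 0.107). Car1 does not stand for the list, since 4 of the 9 epithelial genes were higher and 5 lower in that comparison. Krt20, for example, had a mean of 5.31 in Group M and 4.76 in Group C. The part that the T cell, M cell, macrophage and epithelial genes have in the values of the 7 B cell genes was not tested.

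**Figure D5:**
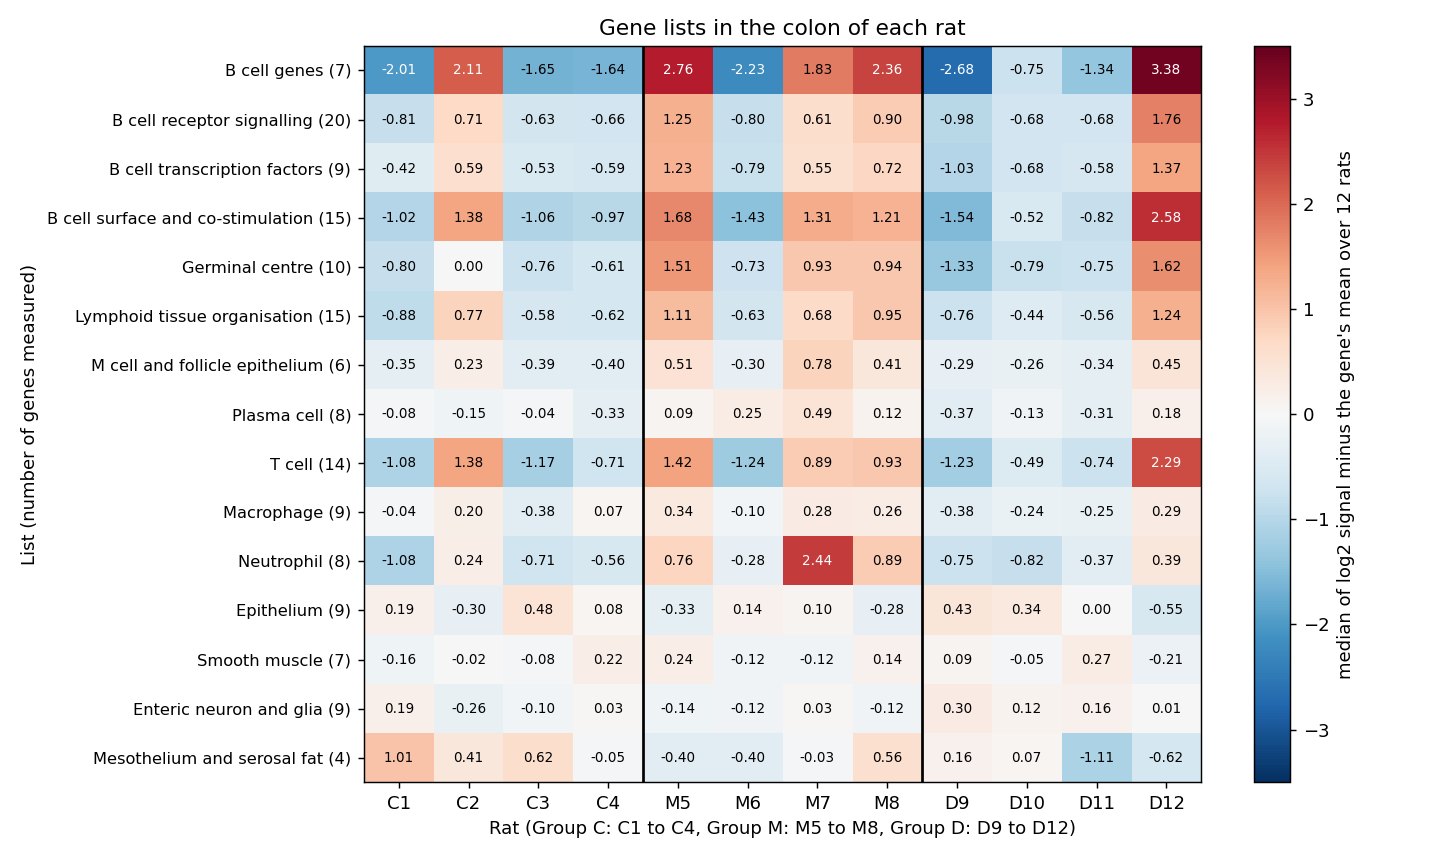
Median over the genes of each list (rows, number of genes in brackets) of the log2 signal minus the mean of the gene over 12 rats, in each rat (columns); red is above and blue below the mean. The B cell genes reach 3.38 in D12 and 2.11 in C2, the T cell row runs alongside, and the germinal centre row is at 0.00 in C2.

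Of 18095 probes of other genes that were well above background on all 11 arrays, those whose order and spacing of rats were most like the mean of the 7 genes were sought. The 10 nearest named genes had a Pearson r of 0.993 to 0.997 over the 11 arrays and of 0.994 to 0.999 over the 8 arrays of Groups C and M. They were Ptprcap, Sash3, Rhoh, Il21r, Sept1, Ptprc, Fcrla, Gpr18, Coro1a and Arhgap15. Of these, Ptprcap and Ptprc belong to the CD45 complex of all white blood cells, Rhoh is a small GTPase of blood cells, and Coro1a organises actin in white blood cells. In all 10 the 5 highest rats were the same as in the 7 genes. The r measures likeness alone, over arrays that fall into separate clusters.

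Because Spi-B is among the genes, the RefSeq promoters of the others (build GRCr8, another build than that of the arrays) were searched in the 250 bases before the start for GAGGAA, the core that Spi-B and the related PU.1 bind, and for ATGCAAAT, the octamer through which Pou2af1 acts, on both strands. Promoters of Cd22, Cr2, Cd37 and Spib were at hand among the 7 genes. GAGGAA was present once in Cd22 and once, on the opposite strand, in Cd37, and these windows are printed with the match in capitals.
Cd22, chr1:95259759-95259824, minus strand: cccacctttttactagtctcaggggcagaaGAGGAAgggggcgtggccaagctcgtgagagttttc
Cd37, chr1:104860826-104860891, minus strand: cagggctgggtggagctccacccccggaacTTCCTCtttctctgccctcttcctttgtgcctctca
The match lay 58 bases before the start of Cd22 and 71 before that of Cd37. Of 33469 promoters, 23.3% held GAGGAA and 1.56% held ATGCAAAT, which none of the 4 held. The match describes the letters and not a site that is bound.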

How the data were processed

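Colonic RNA of 12 rats was labelled with Cy3 and hybridized to Agilent rat arrays, 1 array per rat. Per the file headers, Agilent Feature Extraction 10.5.1.1 made the deposited intensities by subtracting the background and correcting trends across the array, without normalization between arrays. The authors' matrix holds log2 values of the same arrays, with medians of 7.283 to 7.284, so the arrays had been brought to a common level. By which method was not tested. Each intensity was divided by the 75th percentile of its array and taken to log2. Control spots and spots marked as outliers (277 to 521 per array) were left out, and spots of a probe were averaged. A probe counted as well above background on an array where at least 0.5 of its spots did.

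The test was that of limma 3.58.1 in R 4.3.3 (functions lmFit and eBayes), with 3 groups and 11 arrays in 1 model. Calls needed a Benjamini-Hochberg adjusted p, over 30367 probes, of 0.05 or less and a 2-fold difference. The criterion of the study's methods was computed on the same values. Its Rosetta Resolver step was not repeated. The figures come from matplotlib 3.10.9 in Python 3.11.15. Scripts were tested on simulated data. Precision is limited by the 3 or 4 arrays of a group, and p-values measure the spread between these rats.

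The B cell genes, the lists and the tests were chosen with earlier results of these data known. Of 169 listed genes, 7 B cell genes and 143 others were measured. Named are the 7 genes, in each list the genes called by limma and the 4 of largest difference (only genes above background throughout a group), the 10 most like the 7 genes, and markers of other cell types. Of the lists of T cells, plasma cells, macrophages, neutrophils, epithelium, smooth muscle, nerve and mesothelium, only part of the genes so chosen are printed, and some listed genes are not reported here. Mybl1, Il21, Bcl6, Fcgr2b, Cd81, Blnk, Ccl20, Tnfsf13b and Tnfsf13 were named after their values were seen. Alternatives were all 12 arrays, a normexp correction with an offset of 50, quantile normalization, a shift to the median, the authors' matrix, outlier spots kept, a filter on dim probes, the replicate number as a block, array weights, only the 2 compared groups, the methods' criterion, an unadjusted p of at most 0.01, the mean of all probes of a gene, and each of 11 rats left out.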

Additional observations from a re-analysis of the deposited data

Results flagged for a closer look

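In groups of 4 rats, D12 included, 1 rat stood apart from the other 3 by more than Dixon's critical value for 7 of 21 combinations of gene and group, where chance flags about 1 in 20. The ratio of the gap to the whole range was 0.913 for Cd79b, 0.948 for Blk and 0.906 for Cd37, in which C2 stood above the rest of Group C. It was 0.834 for Ms4a1, 0.83 for Cd22 and 0.855 for Cr2, in which M6 stood below the rest of Group M and was not well above background, and 0.936 for Spib, in which D12 stood above the rest of Group D. The combinations are not independent, since the same rats recur, and the genes were chosen with results of these arrays known. The rate of 1 in 20 is therefore no baseline for the 7 of 21.

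The array of D12, which does not enter the group means, had a signal above that of every rat of Group C for all 7 genes. Its log2 signal was 2.18 for Cd79b, -0.62 for Ms4a1, -1.83 for Cd22, -0.68 for Cr2, -1.82 for Blk, -2.19 for Cd37 and 2.49 for Spib, where C2, the highest rat of Group C, had 1.04, -2.55, -3.61, -1.21, -3.28, -2.92 and 1.42.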

How the results depend on the processing

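The median difference of the 7 B cell genes kept its direction under all 13 alternatives in Group M vs Group C (1.36 to 3.25) and in Group D vs Group M (-3.69 to -1.57). In comparisons with Group D, 9 of the 13 could move it. The others change only the threshold, the groups in the model or the probes of a gene. In Group M vs Group C, adding D12 and the replicate block could not move it either, because neither alters the difference between these 2 groups, and it stayed at 2.00. In Group D vs Group C the median was -0.84 to -0.39 under all alternatives but 1 and turned to 0.42 with all 12 arrays. There Cd79b had 0.43, Ms4a1 0.31, Cd22 0.39, Cr2 0.51, Blk 0.42, Cd37 0.12 and Spib 0.55. Leaving out 1 rat gave 1.55 to 3.12, -3.95 to -2.24 and -1.42 to 0.07 in the 3 comparisons, in this order, and in Group D vs Group C single genes ranged from -1.20 to 0.20 (Cd79b), -1.72 to 0.50 (Cr2), -1.42 to 0.07 (Blk) and -0.55 to 0.37 (Spib). Values above 0 came without C2, and for Blk also without D9 (0.07). Among the 7 genes, limma called 0, and 0 to 3 (Group M vs Group C) and 0 to 7 (Group D vs Group M) with a rat left out. Array weights called 7 in both, and the methods' criterion and an unadjusted p of at most 0.01 each called 1 in Group D vs Group M. Of the 143 other listed genes limma called 0, and 0 to 36 and 0 to 56 with a rat left out. Array weights called 59 and 62, the methods' criterion 10 and 10, an unadjusted p of at most 0.01 called 15, 25 and 2 in the 3 comparisons (8.01%, 7.82% and 1.4% of all probes), and the normexp correction and the filter on dim probes each called 1 in Group D vs Group M. The cause was not tested. The deviations of rats of 2 groups from their group means had r of -0.56 to 0.13 over 10 pairs with the same replicate number (1 above 0.1). Over 30 pairs with different numbers, r was -0.22 to 0.3 (6 above 0.1). Whether the numbers pair the rats, for example by litter, cannot be told from these values. With the replicate block the medians were 2.00, -2.79 and -0.83 and 0 genes were called. With the normexp correction the differences of Cd22 were 0.82 between Groups M and C and -1.13 between Groups D and M. The filter on dim probes left 3 of the 7 genes, and signals near background limit Cd22, Ms4a1, Cr2 and Blk.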
